A study of Homo sapiens with 9 samples.

Results

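The nuclear genes of the mitochondrial respiratory chain were followed in H295R, a steroid-producing line from a human adrenocortical carcinoma. All cells were studied at 3 h, and the groups were DMSO as the vehicle, 100 nM angiotensin II, and 100 nM torcetrapib, labelled as test compound CP-529414, with 3 arrays in each. Angiotensin II is the peptide hormone that drives aldosterone secretion, torcetrapib inhibits the cholesteryl ester transfer protein, and the study asked whether such an inhibitor acts on adrenal cells as that hormone system does. Whether replicate arrays were made from separate cultures is not given, so the p-values speak of the spread among these arrays, which may be technical. Genes were chosen by name from the array annotation: symbols starting with NDUFA, NDUFB, NDUFC, NDUFS, NDUFV, UQCR, COX4 to COX8 or ATP5, and SDHA to SDHD and CYC1, without 2 pseudogenes. The rule itself used no measured value, though it was written with earlier results of these data known. It gave 89 of the 19775 genes measured, of which 78 were subunit genes, 8 were assembly factors that share the NDUFA prefix, and 3 were noncoding transcripts beside subunit genes. The subunit genes divided into 33 of complex I, 3 of complex II, 7 of complex III, 17 of complex IV and 18 of complex V. ATP5IF1, the inhibitor of the ATP synthase, and COX7A2L, which joins complexes into supercomplexes, were counted with complexes V and IV. A further 8 symbols had only probe sets that carry several symbols, and these were not analysed here.

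The respiratory chain sits in the inner mitochondrial membrane. Complexes I and II take electrons from NADH and from succinate, complex III passes them to cytochrome c, and complex IV hands them to oxygen. Complexes I, III and IV pump protons as they do so, and complex V, the ATP synthase, uses the proton gradient to make ATP. Most subunits are encoded in the nucleus and imported, and a small core is encoded in mitochondrial DNA. In steroid-producing cells the same membrane also holds the P450 enzymes that start and finish hormone synthesis, which draw electrons from NADPH through ferredoxin rather than from this chain.

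Nuclear respiratory genes are known for promoters with sites for NRF1, for ETS proteins such as GABPA, and for SP1. RefSeq promoters (assembly GRCh38.p14) were matched by symbol for 66 of the 78 subunit genes, with 79 start sites, and the 250 bases before each start were searched on both strands. The palindromic NRF1 motif, whose core is shown in capitals in the SDHA promoter below, was found in 14 of the 79 windows (17.7%), against 5.07% of all 35116 promoters. The ETS motif CCGGAAG was in 17 (21.5%), against 8.52%, and the SP1 motif GGGCGG in 46 (58.2%), against 42.6%. The cyclic AMP response element TGACGTCA was in 4 windows (5.06%), against 1.65%, and the YY1 motif AANATGGCG in 3 (3.80%), against 1.38%. The NR4A element AAAGGTCA was in 2 windows (2.53%), against 1.05%, and the estrogen-related receptor element TCAAGGTCA in none, against 0.319%. These are matches of letters and not measured binding. These 4 promoters are shown because the results below turn on their genes: NDUFA5 and COX5A were the subunit genes lower with angiotensin II than with DMSO, and SDHA and SDHD were the called members of complex II. Each is written 5′ to 3′ on the strand of the gene and ends at the base before the start, with motif matches in capitals.
NDUFA5, chr7:123601652-123601901, minus strand: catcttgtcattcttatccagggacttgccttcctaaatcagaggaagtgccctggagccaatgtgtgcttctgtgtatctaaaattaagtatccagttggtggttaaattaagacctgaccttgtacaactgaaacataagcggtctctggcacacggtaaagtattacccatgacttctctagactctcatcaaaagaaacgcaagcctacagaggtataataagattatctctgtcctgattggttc
COX5A, chr15:74938074-74938323, minus strand: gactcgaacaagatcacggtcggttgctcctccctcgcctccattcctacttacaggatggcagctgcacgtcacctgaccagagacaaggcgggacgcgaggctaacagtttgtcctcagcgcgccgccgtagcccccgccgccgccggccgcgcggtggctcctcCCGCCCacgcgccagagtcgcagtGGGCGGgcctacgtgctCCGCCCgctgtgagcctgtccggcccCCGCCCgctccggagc
SDHA, chr5:218070-218319, plus strand: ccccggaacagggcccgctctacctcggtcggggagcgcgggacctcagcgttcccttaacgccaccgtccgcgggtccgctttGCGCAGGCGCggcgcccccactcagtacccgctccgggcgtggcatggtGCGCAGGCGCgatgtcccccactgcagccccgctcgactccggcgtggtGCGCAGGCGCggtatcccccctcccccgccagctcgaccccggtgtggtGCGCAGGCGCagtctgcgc
SDHD, chr11:112086623-112086872, plus strand: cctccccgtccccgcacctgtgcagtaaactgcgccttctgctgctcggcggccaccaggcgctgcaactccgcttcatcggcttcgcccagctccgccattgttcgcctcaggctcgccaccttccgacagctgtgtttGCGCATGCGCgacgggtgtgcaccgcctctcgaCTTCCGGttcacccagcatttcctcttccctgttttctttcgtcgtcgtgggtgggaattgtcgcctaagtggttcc
The SDHA window held 4 NRF1 matches, at bases 10 to 19, 59 to 68, 108 to 117 and 157 to 166 before the start. The COX5A window held 4 SP1 matches, on both strands, within bases 11 to 83 before the start. SDHD had 1 NRF1 match and 1 ETS match, and none of the 7 motifs occurred in the NDUFA5 window. That window lies before the outermost of the 3 annotated NDUFA5 starts, and the window before the innermost start, not shown, held 1 SP1 match. No matches in these windows overlapped.

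Values are log2 expression per probe set, normalised by the authors, and each gene is given by its brightest probe set over the 9 arrays. Between 2 arrays, Pearson's r across genes, which are not independent replicates, was 0.9964 to 0.9985 within groups and 0.9933 to 0.9977 between groups. Of 8 measured adrenocortical markers, STAR, CYP11A1 and FDX1 gave signals of 11.93, 11.18 and 11.98. TH, KDR and PTPRC, each 1 of several markers of adrenal medulla, endothelium and immune cells, gave 3.91, 3.75 and 3.50. Signals of the other markers are not given here. None of the measured markers of medulla, fibroblast, endothelium, immune cells or muscle was called in any comparison. The signal of 5′ minus 3′ control probe sets, a sign of RNA quality averaged over ACTB and GAPDH, was lowest on the angiotensin II arrays at -0.62 ± 0.02 (SD, n = 3), -0.50 ± 0.22 on the DMSO arrays and highest on the torcetrapib arrays at -0.24 ± 0.03. By exact permutation (two-sided) p was 0.1 for torcetrapib against either group, the lowest that 3 against 3 arrays can reach, and 0.5 for angiotensin II against DMSO. DMSO replicate 2, at -0.2758, lay beside the torcetrapib arrays.

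The respiratory chain genes moved little in either treatment. On the probe sets used, none of the 78 subunit genes differed by more than 0.3 on the log2 scale between any pair of groups. Of all 19775 genes, 1132 did with angiotensin II, 509 with torcetrapib and 1751 between the treatments. The largest fall of a subunit gene was 1.21-fold (NDUFA5, angiotensin II against DMSO). The largest rise was 1.18-fold (COX7B2, torcetrapib against DMSO, a dim probe set whose difference was not called). The 95% interval of the difference lay inside 1.2-fold in both directions for 71 of 78 genes with angiotensin II, for 73 with torcetrapib and for 69 between the treatments, and inside 1.5-fold for all 78 in each. The signal of 71 subunit genes was above the median gene's 6.73, and among them no 95% interval was wider than ±0.133. The 7 below it were COX4I2, COX6A2, COX6B2, COX7A1, COX7B2, COX8C and ATP5MF, and their intervals reached ±0.244. RNA of whole cultures was measured, so fewer cells with a transcript and less of it per cell cannot be told apart. The comparisons share groups of arrays, so they are not independent of each other.

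**Figure D1:**
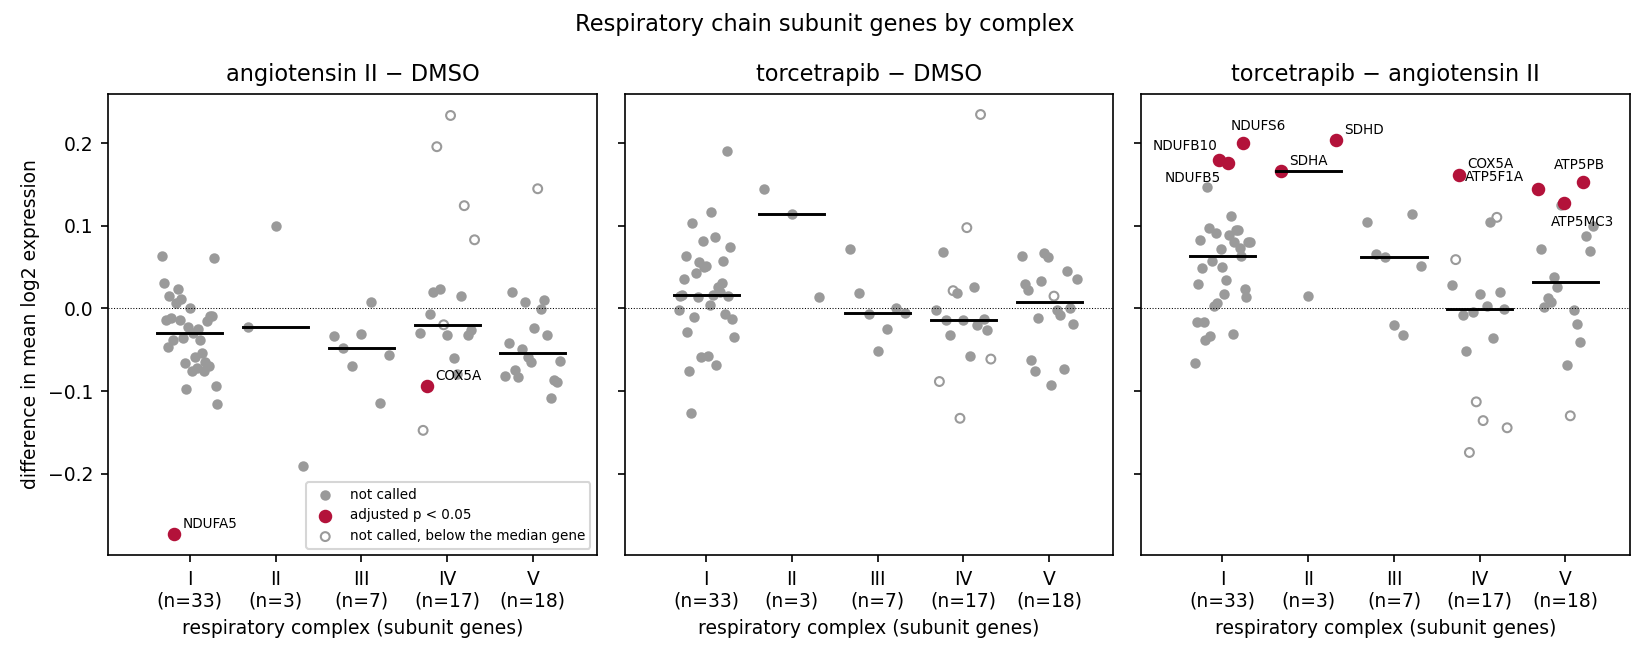
Difference in mean log2 expression for each of the 78 subunit genes, by complex I to V, in the comparisons of angiotensin II with DMSO, torcetrapib with DMSO and torcetrapib with angiotensin II. Red points with names have an adjusted p under 0.05, open circles are genes whose signal is below the median gene, and black lines are medians; the called genes are 2 lower, none, and 9 higher.

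Angiotensin II against DMSO compares cells given the hormone for 3 h with cells given the vehicle. The subunit genes NDUFA5 and COX5A fell and none rose. These 2 are 2.56% of the 78, against 6.12% of all genes called in either direction (3.36% higher and 2.76% lower) by limma at a Benjamini-Hochberg adjusted p under 0.05. The median subunit gene differed by -0.0321, where the median of all genes was 0.0105. Differences were below 0 for 57 of the 78 (73.1%), against 46.1% of all genes. They were below 0 for 77.5% of the 71 subunit genes above the median gene and for 28.6% of the 7 below it. The median subunit gene stood at percentile 97.35 of all genes by signal, and no comparison with genes of like signal was made. At an unadjusted p under 0.05, 12 subunit genes were lower (15.4%, against 8.53% of all genes) and 2 were higher (2.56%, against 7.95%). All 3 angiotensin II arrays lay below all 3 DMSO arrays for 12 genes (15.4%, against 8.37%) and above them for 3 (3.85%, against 9.26%).

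NDUFA5 encodes an accessory subunit in the peripheral arm of complex I. Its log2 values were 11.94, 11.84 and 11.80 with DMSO, 11.67, 11.52 and 11.56 with angiotensin II, and 11.65, 11.71 and 11.84 with torcetrapib. All angiotensin II arrays were below all DMSO arrays, and the torcetrapib arrays reached into the range of both. The fall with angiotensin II was 0.27 ± 0.05 (SE), or 1.21-fold, with an adjusted p of 0.00326. With torcetrapib the difference from DMSO was -0.13 ± 0.05 (adjusted p = 0.294). A second probe set of NDUFA5, with a signal of 3.59, differed by -0.16 between angiotensin II and DMSO, and in the mean over both probe sets the call was lost (adjusted p = 0.305).

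COX5A encodes a subunit of cytochrome c oxidase that faces the matrix. Its values were 12.95, 12.93 and 12.95 with DMSO, 12.88, 12.84 and 12.82 with angiotensin II, and 13.00, 13.00 and 13.03 with torcetrapib. The groups did not overlap in any pair, with angiotensin II lowest and torcetrapib highest. The fall with angiotensin II was 0.094 ± 0.026, or 1.07-fold (adjusted p = 0.0436). The call was lost in 14 of 21 alternative settings, including each fit that left out 1 DMSO or 1 torcetrapib array, with adjusted p-values from 0.0216 to 0.946. A second COX5A probe set, with a signal of 7.69, differed by -0.02.

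By complex, the angiotensin II medians were -0.0299 for complex I, -0.0224 for complex II, -0.0483 for complex III, -0.0198 for complex IV and -0.0534 for complex V. SDHD, a membrane anchor of succinate dehydrogenase, stood next to the threshold. It had 11.03, 10.999 and 11.004 with DMSO and 10.90, 10.68 and 10.88 with angiotensin II, without overlap, and the difference of -0.19 ± 0.06 had an adjusted p of 0.0570. In complex III the lowest difference was that of UQCRC2, a core protein, at -0.11 ± 0.04 (adjusted p = 0.135), with no overlap of the groups. In complex V it was that of ATP5PB, the b subunit of the stalk, at -0.11 ± 0.04 (adjusted p = 0.138), also without overlap. The catalytic subunits ATP5F1A and ATP5F1B differed by -0.08 ± 0.03 and -0.04 ± 0.03 (adjusted p = 0.226 and 0.522). Of the other core genes of complex I, NDUFV2 differed by -0.09 ± 0.04 (adjusted p = 0.203), NDUFS1 by -0.06 ± 0.06 (adjusted p = 0.693) and NDUFV1 by 0.06 ± 0.04 (adjusted p = 0.535). NDUFA1, at 0.06 ± 0.04 (adjusted p = 0.460), was the highest in complex I, and SDHC, at 0.10 ± 0.05 (adjusted p = 0.381), in complex II.

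Torcetrapib against DMSO sets the test compound against the same vehicle arrays. No subunit gene was called by limma in either direction, against 1.16% of all genes (0.592% higher and 0.566% lower). At an unadjusted p under 0.05, 7 were higher (8.97%, against 4.49% of all genes) and 3 were lower (3.85%, against 8.86%). The median subunit gene differed by 0.0145, where the median of all genes was -0.0282, and 44 of 78 differences were above 0 (56.4%, against 39.1%). All torcetrapib arrays lay above all DMSO arrays for 11 genes (14.1%, against 6.04%) and below them for 2 (2.56%, against 10.5%). The medians by complex were 0.0163 for complex I, 0.1145 for complex II, -0.0052 for complex III, -0.0135 for complex IV and 0.0076 for complex V.

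The smallest adjusted p-values belonged to NDUFS6 and SDHA. NDUFS6 encodes a zinc-binding accessory subunit of complex I, and its values were 12.16, 12.26 and 12.26 with DMSO against 12.48, 12.46 and 12.32 with torcetrapib, a difference of 0.19 ± 0.05 (adjusted p = 0.0573). SDHA, the flavoprotein that oxidises succinate, had 11.55, 11.60 and 11.63 with DMSO against 11.77, 11.75 and 11.70, a difference of 0.14 ± 0.04 (adjusted p = 0.0676). Neither overlapped between the groups. Without DMSO replicate 2, the array whose control index lay beside torcetrapib, 3 genes were called: NDUFS6 and SDHA higher and ATP5ME, a small membrane subunit of complex V, lower. These are 3.85% of the 78, and the same fit called 917 of all genes (4.64%). Without torcetrapib replicate 3, NDUFS6 alone was called (1.28% of the 78, against 0.425% of all genes). SDHA was measured by a probe set of a type that can also match related transcripts, and SDHA has pseudogenes of close sequence. NDUFA5, with the lowest difference in complex I, and ATP5ME, the lowest in complex V at -0.09 ± 0.04 (adjusted p = 0.255), were not called. The highest of complex III was CYC1, cytochrome c1, at 0.07 ± 0.05 (adjusted p = 0.617), and the lowest UQCRB at -0.05 ± 0.04 (adjusted p = 0.680). The highest of complex V was ATP5MC2 at 0.07 ± 0.04 (adjusted p = 0.526).

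**Figure D2:**
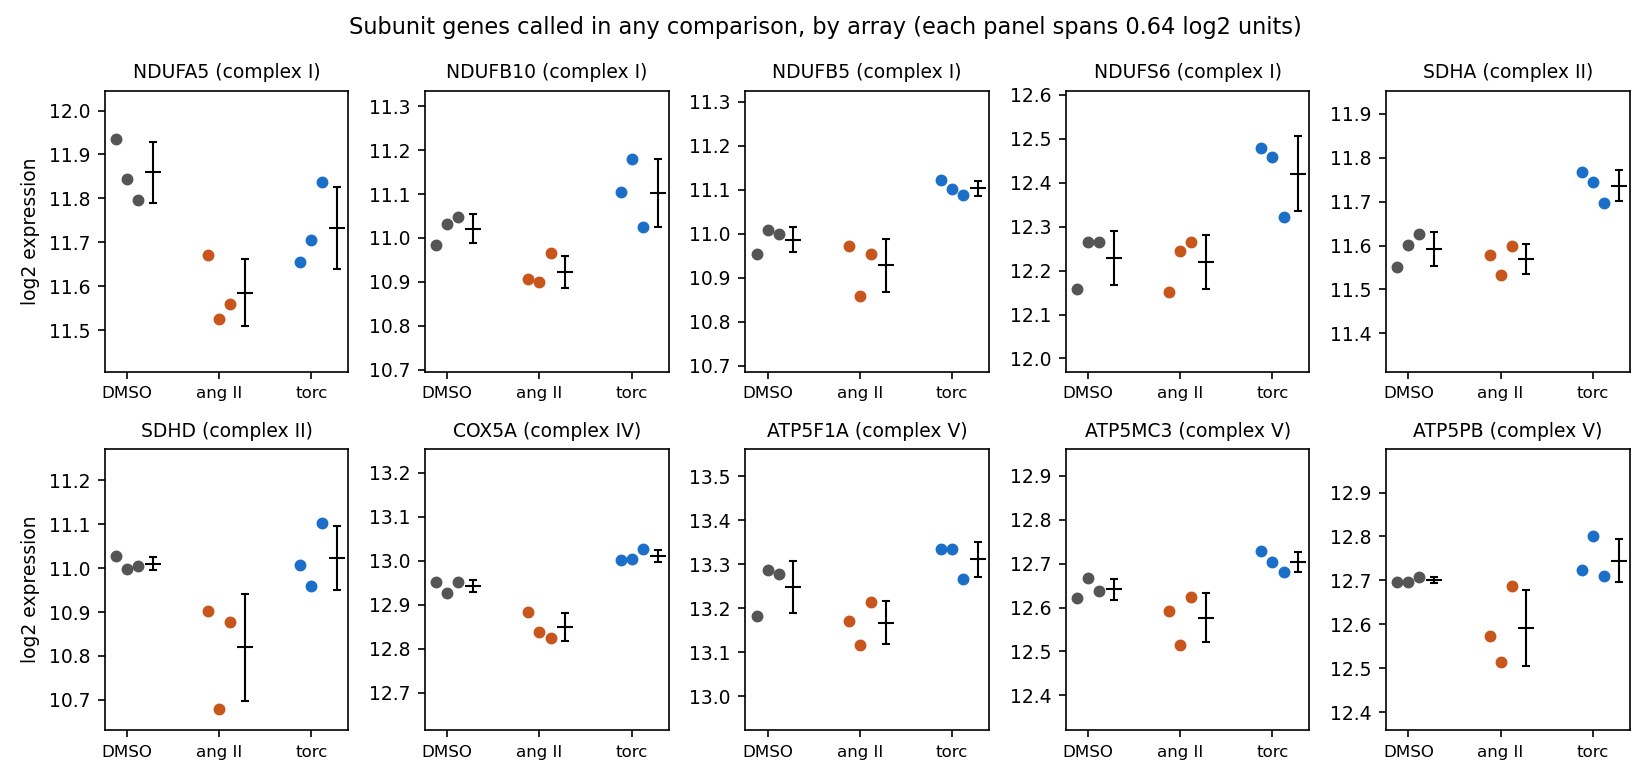
Log2 expression on each array for the 10 subunit genes called in any comparison, with points for the 3 replicates of DMSO, angiotensin II (ang II) and torcetrapib (torc), and a bar for the mean ± SD of each group. Each panel spans 0.64 log2 units; all angiotensin II arrays lie below all torcetrapib arrays except for NDUFA5.

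Torcetrapib and angiotensin II were given at the same dose and time and could be compared directly. Between them, 9 subunit genes were higher with torcetrapib and none was lower. That is 11.5% of the 78, against 11.3% of all genes called in either direction, with 4.61% called higher and 6.68% lower. The 9 were NDUFB10, NDUFB5 and NDUFS6 of complex I, SDHA and SDHD of complex II, COX5A of complex IV, and ATP5F1A, ATP5MC3 and ATP5PB of complex V. The median subunit gene differed by 0.0431, where the median of all genes was -0.0426, and 56 of 78 differences were above 0 (71.8%, against 37.6%). The share above 0 was 76.1% for the 71 subunit genes above the median gene and 28.6% for the 7 below it. It was also 93.3% for mitochondrial and 60.7% for cytosolic ribosomal proteins, so this direction was not particular to the chain. Whether it goes with signal level was not tested. At an unadjusted p under 0.05, 24 were higher (30.8%, against 9.20%) and 0 lower (0%, against 15.6%). All torcetrapib arrays lay above all angiotensin II arrays for 21 genes (26.9%, against 10.3%) and below them for 3 (3.85%, against 18.4%). The 5′ minus 3′ control signal also differed between these groups without overlap. With that signal as a covariate none of the 9 calls held, 280 of the 19775 genes were called, and the 9 differences lay between 0.055 and 0.2193. Because the signal splits these groups, such a fit cannot tell it apart from the treatment. No conclusion on RNA quality is drawn from the lost calls. None of the 9 calls held without the intensity trend of the variance either, where 1492 of all genes (7.54%) were called.

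In complex I the differences were 0.20 ± 0.05 for NDUFS6 (adjusted p = 0.00899), 0.18 ± 0.04 for NDUFB10 (adjusted p = 0.0154) and 0.18 ± 0.04 for NDUFB5 (adjusted p = 0.0105). NDUFB5 and NDUFB10 encode accessory subunits of the membrane arm. NDUFB5 had 10.97, 10.86 and 10.95 with angiotensin II, 10.95, 11.01 and 10.999 with DMSO, and 11.12, 11.10 and 11.09 with torcetrapib, above every other array. NDUFB10 had 10.91, 10.90 and 10.96 with angiotensin II, 10.98, 11.03 and 11.05 with DMSO, and 11.10, 11.18 and 11.02 with torcetrapib, with the DMSO arrays above those of angiotensin II and overlapping those of torcetrapib. NDUFS6 had 12.15, 12.24 and 12.26 with angiotensin II, within the range of DMSO but for its lowest array. A second NDUFB10 probe set differed by -0.06, the opposite sign. NDUFA1, at -0.07 ± 0.04 (adjusted p = 0.302), was the lowest of complex I. The core subunits NDUFS1, NDUFV1 and NDUFV2 differed by 0.10 ± 0.06, 0.01 ± 0.04 and 0.08 ± 0.04 (adjusted p = 0.340, 0.875 and 0.199).

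In complex II both called genes did not overlap between the treatments. SDHD had 11.01, 10.96 and 11.10 with torcetrapib, in and around the DMSO values, and its difference from angiotensin II was 0.20 ± 0.06 (adjusted p = 0.0263). A second, dim SDHD probe set at 3.56 differed by -0.03, and in the mean over both the call was lost (adjusted p = 0.404). SDHA had 11.58, 11.53 and 11.60 with angiotensin II, in and just below the DMSO range, and its difference was 0.17 ± 0.04 (adjusted p = 0.00692). SDHC, the other membrane anchor, differed by 0.01 ± 0.05 (adjusted p = 0.893). No gene of complex III was called on the probe sets used. The highest there was UQCRC2 at 0.11 ± 0.04 (adjusted p = 0.0864), and the lowest UQCRC1, the other core protein, at -0.03 ± 0.04 (adjusted p = 0.667). UQCRC2 was called higher when its probe sets were averaged (0.35, adjusted p = 0.00766) and without probe sets of the _x_at and _s_at types (0.36, adjusted p = 0.00048). It was also called with array weights (0.0995, adjusted p = 0.0164). Those weights were 6.154 for angiotensin II replicate 1 and 0.4476 and 0.4803 for replicates 2 and 3, so that group rested mostly on 1 array. In complex IV COX5A was higher with torcetrapib by 0.16 ± 0.03, or 1.12-fold (adjusted p = 0.00079). Its second probe set differed by 0.03, and in the mean over both the call was lost (adjusted p = 0.230). COX4I1 and COX5B differed by 0.03 ± 0.03 and -0.01 ± 0.03 (adjusted p = 0.631 and 0.912).

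In complex V the called genes encode the catalytic alpha subunit (ATP5F1A), a c subunit of the rotor ring (ATP5MC3) and the b subunit (ATP5PB). ATP5F1A had 13.17, 13.12 and 13.21 with angiotensin II, 13.18, 13.29 and 13.28 with DMSO, and 13.33, 13.34 and 13.27 with torcetrapib. Its difference of 0.14 ± 0.03 had an adjusted p of 0.0115, but a second, dim probe set at 4.81 went the other way, by -0.28. ATP5MC3 had 12.59, 12.51 and 12.62 with angiotensin II, 12.62, 12.67 and 12.64 with DMSO, and 12.73, 12.70 and 12.68 with torcetrapib. The difference was 0.13 ± 0.03 (adjusted p = 0.0161), and 2 other ATP5MC3 probe sets differed by 0.08 and 0.11, the same sign. ATP5PB had 12.57, 12.51 and 12.69 with angiotensin II, 12.70, 12.70 and 12.71 with DMSO, and 12.72, 12.80 and 12.71 with torcetrapib, a difference of 0.15 ± 0.04 (adjusted p = 0.0182). For all 3 genes the torcetrapib arrays lay above the angiotensin II arrays. A second ATP5PB probe set, at 6.63, differed by 0.03, and in the mean over both the call was lost (adjusted p = 0.469). ATP5F1B, the catalytic beta subunit, differed by 0.07 ± 0.03 (adjusted p = 0.112).

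The array medians show how far single libraries carry these differences. With each gene set to its mean over the 9 arrays, the median subunit gene was at 0.0044, -0.0133 and 0.032 on the DMSO arrays, at -0.0251, -0.0552 and 0.0206 on the angiotensin II arrays, and at 0.023, 0.0299 and 0 on the torcetrapib arrays. All groups overlapped, with angiotensin II replicate 2 the lowest and replicate 3 inside the DMSO range. Without angiotensin II replicate 2 the subunit genes called between the treatments were 4 (5.13%, against 8.32% of all genes), and without replicate 3 they were 15 (19.2%, against 11.1%). Without torcetrapib replicates 1 and 2 in turn they were 3 and 4 (3.85% and 5.13%, against 7.21% and 7.51% of all genes). COX5A and SDHA were called in every one of the 9 fits that left out an array. In complex IV the medians of the arrays lay between -0.0202 and 0.0214.

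**Figure D3:**
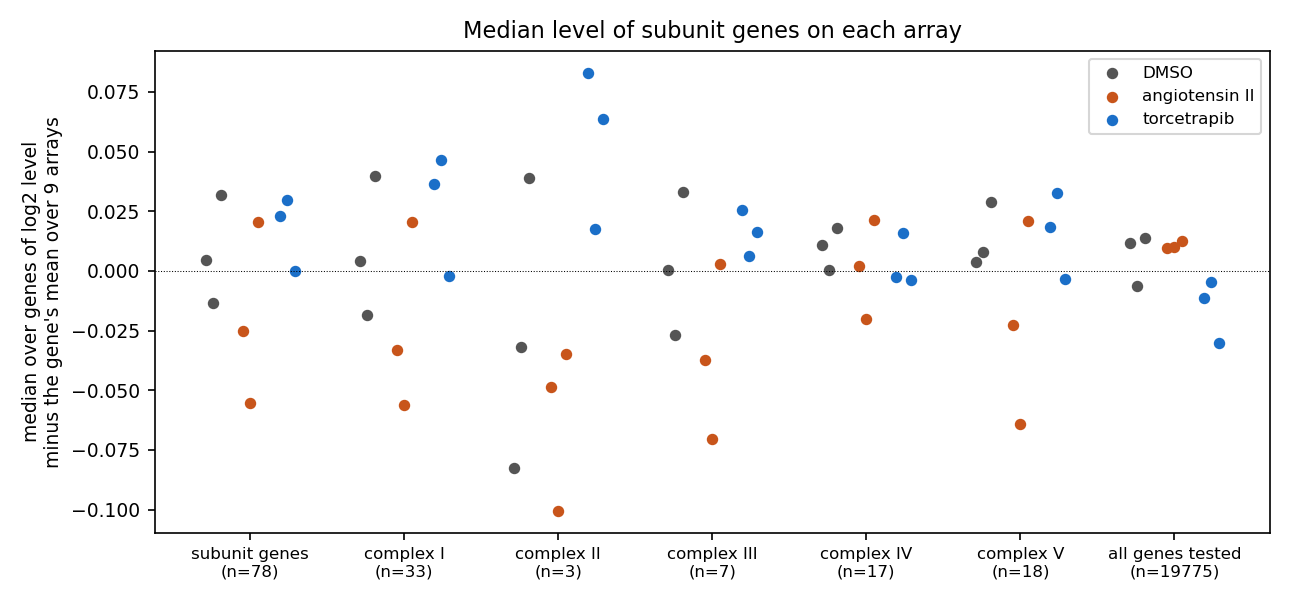
Median over genes of the log2 level on each array, after each gene was set to its mean over the 9 arrays, for all subunit genes, for each complex and for all genes tested, with 3 points per group. The DMSO, angiotensin II and torcetrapib arrays overlap for the subunit genes as a whole. In complex II, with 3 genes, the angiotensin II arrays are at or below -0.0347, which overlaps the DMSO arrays and lies below all torcetrapib arrays.

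Complex IV has subunits in paired forms, 1 found in most tissues and 1 known from muscle, lung or testis, and only the common forms gave signals above the median gene. COX4I1, COX6A1, COX6B1, COX7A2, COX7B and COX8A had signals of 12.69, 13.22, 11.95, 12.66, 12.53 and 12.77. Their counterparts COX4I2, COX6A2, COX6B2, COX7A1, COX7B2 and COX8C had 6.42, 5.004, 5.85, 4.84, 4.91 and 3.10, which differ also in how well each probe set binds and so are not compared as amounts. None of the 12 was called in any comparison. The extremes of complex IV came from the dim forms: COX7A1 at 0.23 ± 0.10 (adjusted p = 0.229) and COX4I2 at -0.15 ± 0.09 (adjusted p = 0.455) with angiotensin II, and COX7B2 at 0.23 ± 0.11 (adjusted p = 0.361) and COX6B2 at -0.13 ± 0.10 (adjusted p = 0.623) with torcetrapib. Between the treatments COX6A2, at -0.17 ± 0.09 (adjusted p = 0.250), was the lowest. COX7A2L differed by -0.08 ± 0.04, 0.03 ± 0.04 and 0.11 ± 0.04 in the comparisons of angiotensin II with DMSO, torcetrapib with DMSO and torcetrapib with angiotensin II (adjusted p = 0.412, 0.860 and 0.141). Of the c subunit genes, which encode the same mature protein, only ATP5MC3 was called, while ATP5MC1 and ATP5MC2 differed by 0.03 ± 0.05 and 0.13 ± 0.04 between the treatments (adjusted p = 0.785 and 0.0611). The dim ATP5MF probe set, at -0.13 ± 0.11 (adjusted p = 0.529), gave the lowest difference of complex V between the treatments.

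The 8 NDUFAF genes encode factors that build complex I and are not part of the finished enzyme. NDUFAF8 had 9.90, 9.88 and 9.99 with DMSO, 9.74, 9.71 and 9.90 with angiotensin II, and 10.03, 10.07 and 9.96 with torcetrapib. It was called between the treatments only, at 0.24 ± 0.06 (adjusted p = 0.0159), and those groups did not overlap. No other NDUFAF gene was called, so this is 12.5% of the 8, against 11.3% of all genes in either direction and 4.61% higher. The medians of the 8 were -0.0378, 0.0775 and 0.1054 in the comparisons of angiotensin II with DMSO, torcetrapib with DMSO and torcetrapib with angiotensin II. On a list of 18 complex I assembly factors that contains them, 2 fell with angiotensin II, none was called with torcetrapib, and 5 were higher with torcetrapib than with angiotensin II. That is 11.1% lower, against 2.76% of all genes, and 27.8% higher between the treatments, against 4.61%. TMEM186 and NUBPL, an iron-sulfur cluster protein, fell by 0.34 ± 0.08 and 0.32 ± 0.09 (adjusted p = 0.0186 and 0.0442), and both were among the 5 with COA1, TMEM126B and NDUFAF8. The noncoding transcripts NDUFV1-DT, NDUFB2-AS1 and NDUFV2-AS1 were not called, with differences between -0.20 and -0.01.

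Assembly factors of the other complexes changed in few cases. None of the 4, 6 and 4 measured factors of complexes II, III and V was called. Of 27 factors of complex IV, CMC2 rose by 0.17 ± 0.04 with angiotensin II (adjusted p = 0.0199) and COX17, a copper chaperone on a dim probe set at 4.03, fell by 0.39 ± 0.09 (adjusted p = 0.0147). These 2 are 7.41% of the list, against 6.12% of all genes in either direction. None was called with torcetrapib, and between the treatments COA5 and SCO1, which delivers copper, were higher and CMC2 lower (11.1%, against 11.3%).

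Of the subunit genes encoded in mitochondrial DNA 7 were measured, and COX1, the catalytic subunit of complex IV, was the only call in the 3 comparisons. The call, between the treatments, is 14.3% of the 7, against 11.3% of all genes in either direction and 4.61% higher. COX1 had 13.02, 14.09 and 12.91 with DMSO, 13.14, 12.79 and 12.88 with angiotensin II, and 13.91, 14.04 and 14.16 with torcetrapib. Torcetrapib was higher than angiotensin II by 1.103 ± 0.21 (adjusted p = 0.00269) without overlap, while torcetrapib differed from DMSO by 0.70 ± 0.21 (adjusted p = 0.135). DMSO replicate 2 lay with the torcetrapib arrays and apart from the other DMSO arrays. The 4 arrays with the highest COX1 values were also the 4 with the highest 5′ minus 3′ control signal, and the part of that signal in the result was not tested. The other 6 genes (ATP6, COX2, COX3, ND2, ND4 and ND6) were not called, and the median of the 7 was -0.0172, -0.0579 and -0.0211 in the comparisons in the order above.

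**Figure D4:**
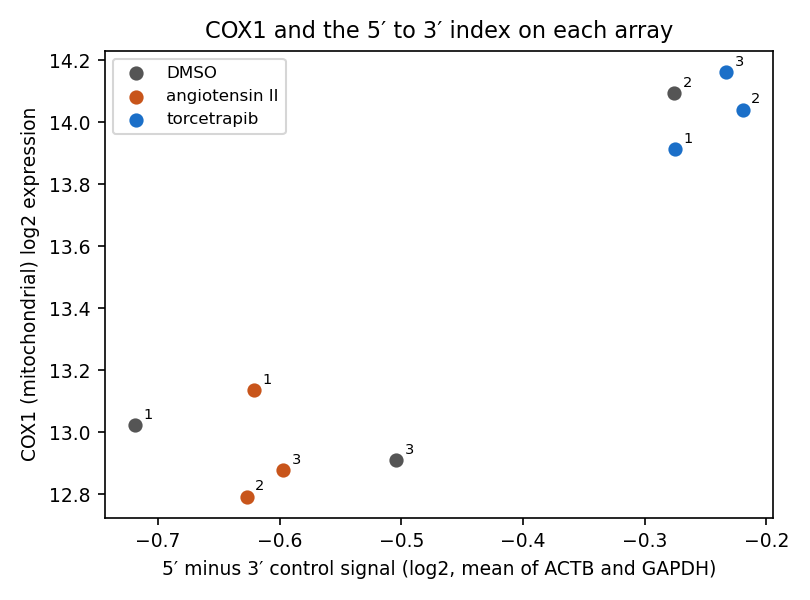
Log2 expression of COX1, the mitochondrially encoded subunit of complex IV, against the 5′ minus 3′ control signal of each of the 9 arrays, with replicate numbers beside the points. DMSO replicate 2, at -0.2758 and 14.09, lies with the torcetrapib arrays, and the other DMSO arrays lie with angiotensin II.

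Some other probe sets of nuclear subunit genes gave larger differences than the ones used. Of 74 such probe sets, 3 differed by more than 0.3 with angiotensin II, 4 with torcetrapib and 9 between the treatments. Of all 19775 genes, on the probe sets used, 1132, 509 and 1751 did. With angiotensin II a second ATP5F1C probe set, at a signal of 6.34, was 0.61 below DMSO, and dim probe sets of NDUFB7 and ATP5PD, at 5.09 and 6.40, differed by -0.32 and -0.31. A probe set of SDHC with a signal of 9.53 differed by 0.64 between torcetrapib and angiotensin II, where the probe set used for SDHC differed by 0.01. For UQCRC2 the second probe set, at 9.90, differed by 0.36 against 0.11, and for NDUFS1 a probe set at 7.46 differed by 0.67 against 0.10. Like UQCRC2, NDUFS1 was called higher between the treatments when its probe sets were averaged (0.28, adjusted p = 0.0499) and without the _x_at and _s_at types (0.67, adjusted p = 0.0369). Both settings use the probe set at 7.46, so they are not separate readings. NDUFS1 was also called with array weights (0.11, adjusted p = 0.0322), where the angiotensin II group rested mostly on replicate 1. Another NDUFS1 probe set, at 7.39, differed by -0.18. The size of the difference in a member with several probe sets therefore depended on the probe set read, and 44 of the 78 genes had more than 1.

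Other mitochondrial gene groups were described beside the subunits. Of 17 genes of the tricarboxylic acid cycle and its entry, 3 fell with angiotensin II: DLAT and PDHB of the pyruvate dehydrogenase complex, by 0.27 ± 0.06 and 0.16 ± 0.04 (adjusted p = 0.0165 and 0.0355), and SUCLA2 by 0.21 ± 0.05 (adjusted p = 0.0159). That is 17.6% of the list, against 2.76% of all genes lower. None was called with torcetrapib, and DLAT, DLD, IDH3A and SUCLA2 (23.5%, against 4.61% of all genes higher) were higher with torcetrapib than with angiotensin II, by 0.16 to 0.45. Of 75 mitochondrial ribosomal proteins, MRPL34 and MRPS10 fell with angiotensin II, MRPL32 rose with torcetrapib, and 15 were higher with torcetrapib than with angiotensin II. These are 2.67%, 1.33% and 20% of the list, against 2.76% of all genes lower, 0.592% higher and 4.61% higher. Their medians were -0.0559, 0.0391 and 0.0926 in the order above. Of 61 cytosolic ribosomal proteins, 0, 0 and 4 were called, the 4 all higher with torcetrapib (6.56%, against 4.61% of all genes), with medians of -0.0117, 0.0056 and 0.0227. Of 26 electron carriers, entry enzymes and uncouplers, ETFA, which feeds electrons from fatty acid oxidation into the chain, fell with angiotensin II by 0.15 ± 0.04 (adjusted p = 0.0176) and was higher with torcetrapib than with angiotensin II by 0.20 ± 0.04 (adjusted p = 0.00154). It was the only call of that list in either comparison (3.85%, against 6.12% and 11.3% of all genes).

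The electron path to the steroid-making P450 enzymes was read on a list of 9 genes that also holds STAR, a protein of cholesterol transport. Of this list 3 changed with angiotensin II, STAR among them (33.3%, against 6.12% of all genes). FDX1, the ferredoxin of that path, rose by 0.66 ± 0.06 with angiotensin II (adjusted p = 2.58e-06) and by 0.37 ± 0.06 with torcetrapib (adjusted p = 0.00717). It was the only call of the list with torcetrapib (11.1%, against 1.16% of all genes). FDX1 and STAR were lower with torcetrapib than with angiotensin II (22.2%, against 6.68% of all genes lower). STAR, which brings cholesterol to the inner membrane, rose by 0.20 ± 0.04 with angiotensin II (adjusted p = 0.00304), and NNT, which makes mitochondrial NADPH, fell by 0.22 ± 0.06 (adjusted p = 0.033). Of 26 regulators of mitochondrial biogenesis, SIRT1, a deacetylase, rose by 0.65 ± 0.08 with angiotensin II (adjusted p = 3.66e-05) and MTERF1, a mitochondrial transcription terminator, fell by 0.47 ± 0.09 (adjusted p = 0.00485), or 7.69% of the list against 6.12% of all genes. None was called with torcetrapib. Between the treatments SSBP1 was higher with torcetrapib, and SIRT1, PPRC1, POLRMT, the mitochondrial RNA polymerase, and ESRRA were lower (5 in all, 19.2%, against 11.3%). Of 10 genes that link oxygen sensing to respiration, EGLN1 rose with angiotensin II by 0.16 ± 0.04 (adjusted p = 0.0285) and VHL rose with torcetrapib by 0.63 ± 0.11 (adjusted p = 0.0133). Between the treatments VHL was higher with torcetrapib, and EGLN1 and HIF1A were lower. The shares called on this list were 10%, 10% and 30%, against 6.12%, 1.16% and 11.3% of all genes.

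**Figure D5:**
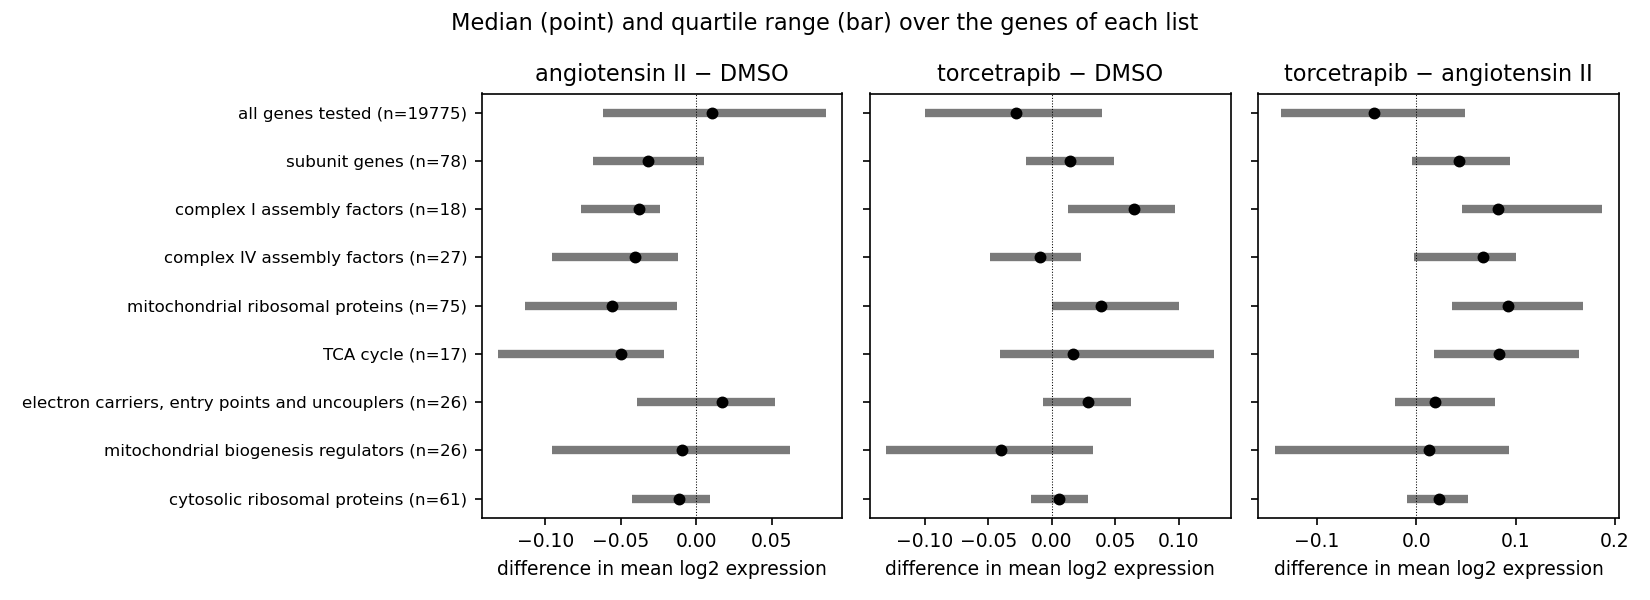
Median (point) and range from the lower to the upper quartile (bar) of the difference in mean log2 expression over the genes of each list, for all genes, the 78 subunit genes and 7 other lists, in the 3 comparisons. The subunit genes have medians of -0.0321, 0.0145 and 0.0431, where all genes have 0.0105, -0.0282 and -0.0426.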

How the data were processed

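The authors deposited log2 expression values per probe set for 9 arrays of 54675 probe sets, summarised by RMA (robust multi-array averaging) as the submitters' processing notes state. The program, its version and the probe mapping file were not given in the sources used here. Values ran from 2.50 to 14.6, and the number of arrays limits the precision. No further normalisation was applied. Of the probe sets, 62 controls, 1801 with several symbols and 11721 without one were left out, and 41091 with 1 symbol gave 19775 genes. All genes entered a single linear model of the 3 groups in limma 3.58.1 in R 4.3.3 (6 residual degrees of freedom, variances moderated along an intensity trend). Two-sided p-values were adjusted within each comparison for all 19775 genes (Benjamini-Hochberg), and a gene is named as called when the adjusted p is under 0.05. Intervals are 95% and unadjusted. Differences carry a standard error (SE).

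Members and lists were chosen with earlier results of these data known, so counts on them are descriptions. Genes were named by rule: every called subunit, the highest and lowest of each complex in each comparison, paired isoforms, core subunits, and up to 5 called genes per list and direction. Groups follow the sample labels; the series design text also lists angiotensin II under CETP inhibitors, and that wording was not followed. The labels give no batch. The control index is the mean of ACTB and GAPDH. The test was checked on simulated data. Alternatives were the moderation, a filter on dim genes, scaling, the probe set per gene, array weights, only the groups compared, the index as covariate, the threshold and each array left out.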

Additional observations from a re-analysis of the deposited data

How the results depend on the processing

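The median difference of the subunit genes moved by less than the spread between arrays in every alternative for which it was recomputed. With 1 array left out it ran from -0.0526 to -0.0212 for angiotensin II against DMSO, from -0.0022 to 0.0194 for torcetrapib against DMSO and from 0.0278 to 0.0561 for torcetrapib against angiotensin II. For torcetrapib against DMSO it turned below 0 with a new quantile normalisation (-0.0025) and without _x_at and _s_at probe sets (-0.0058), and between the treatments it was 0.0225 with that normalisation and 0.0648 with the index as a covariate. Counts of called genes were less stable. For angiotensin II against DMSO the count of 2 became 0 without the intensity trend, 1 with arrays centred, with the mean of probe sets, without _x_at and _s_at probe sets, with only the 2 groups compared or at an adjusted p under 0.01, and 8 with array weights (2712 of all genes). The 1 gene in the mean of probe sets was ATP5PD, not NDUFA5 or COX5A. Over all genes the shares called in these settings, in the same order, were 4.25%, 4.69%, 4.82%, 5.3%, 4.34%, 3.88% and 13.7%. The array weights were 6.154 for angiotensin II replicate 1 and 0.4476 and 0.4803 for replicates 2 and 3, so weighted counts that involve this group rest mostly on 1 of its arrays. With 1 array left out the count for angiotensin II against DMSO was 1 to 3. It was 1 (1.28%, against 4.83% to 5.79% of all genes) without any single DMSO or torcetrapib array or angiotensin II replicate 2. Without angiotensin II replicate 1 or 3 it was 3 (3.85%, against 4.86% and 5.92% of all genes). For torcetrapib against DMSO the count of 0 became 1 with robust moderation or without the dimmest genes (1.37% and 1.94% of all genes). It became 2 with a new quantile normalisation or at an adjusted p under 0.10 (2.56% and 2.54% of all genes). With array weights it was 6 (3 higher and 3 lower, with 1272 of all genes, 6.43%), and it was 0 to 3 with 1 array left out. For torcetrapib against angiotensin II the count of 9 became 0 without the trend or with the index as a covariate, 3 with arrays centred or at an adjusted p under 0.01, 5 with the mean of probe sets or without _x_at and _s_at probe sets, 14 at an adjusted p under 0.10 (3205 of all genes) and 29 with array weights (6216 of all genes). It was 3 to 15 with 1 array left out, and every call in these settings was higher with torcetrapib. The shares of all genes called without the trend and with the index were 7.54% and 1.42%. With arrays centred and at an adjusted p under 0.01 they were 8.39% and 5.58%. With the mean of probe sets and without _x_at and _s_at probe sets they were 11.7% and 9.25%. ATP5F1A turned its sign between the treatments, to -0.067 (adjusted p = 0.514) in the mean of its probe sets and to -0.2786 (adjusted p = 0.122) without _s_at probe sets, which leaves its dim second probe set. The call of NDUFA5 with angiotensin II held in 19 of 21 settings. It was lost without the trend (adjusted p = 0.0609), where the difference was the same, and in the mean of probe sets (-0.2185, adjusted p = 0.305). The cause of the other changes was not tested. Without _x_at and _s_at probe sets 66 subunit genes remained. No paired analysis was possible because the labels give the groups no shared replicate numbers.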
